A study of Homo sapiens with 4 samples.

Results

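The genes described here are the D-type and E-type cyclins of G1, their kinases *CDK4* and *CDK6*, and the inhibitor genes *CDKN1B*, *CDKN2A* and *CDKN2B*. They were chosen by name, 10 genes in all, and 8 of them were analysed among the 16811 genes of the series. *CDKN2A* and *CDKN2B* were not analysed here. RNA-seq compared MCF12A cells, a non-tumorigenic human mammary epithelial line whose source label reads breast cancer cell line, with MCF12A cells in which CRISPR/Cas9 had removed the p2 promoter of *C1orf132*, the host gene of miR-29b2 and miR-29c. There were 2 edited libraries, with the genotype label C1orf132 KO, and 2 wild-type libraries. The groups rest on these labels, since the level of *C1orf132* was not analysed here. Both groups were grown with 20 ng/mL EGF, 10 µg/mL insulin and 5% horse serum, plus hydrocortisone and cholera toxin, and their poly(A)-selected RNA was read single-end over 75 bases. Edited cells were grown from sorted single cells, and the sources used here do not say whether both edited libraries came from 1 colony, nor that the wild-type cells went through the same sorting.

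Mitogens drive the passage through G1 by raising D-type cyclins, which bind CDK4 or CDK6 and start the phosphorylation of RB1 and its relatives. Phosphorylated RB1 releases E2F factors, which turn on the E-type cyclins, and cyclin E with CDK2 completes the step into S phase. INK4 proteins block CDK4 and CDK6, while p27, the product of *CDKN1B*, holds cyclin E and CDK2 in check. *CDK6* and *CCND2* are known targets of the miR-29 family, and the edit lies in the host gene of 2 of that family's members.

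The mature miR-29 sequences are shown because all of them carry the same seed, which decides the sites they can pair with. They are RefSeq sequences (table of build GRCh38.p14, all 3 names matched), with the seed (AGCACCA, bases 2 to 8) in capitals.
hsa-miR-29a-3p: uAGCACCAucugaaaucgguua
hsa-miR-29b-3p: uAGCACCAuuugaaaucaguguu
hsa-miR-29c-3p: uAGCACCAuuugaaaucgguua

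The seed match TGGTGCT was searched on the transcribed strand of the canonical 3′ UTR of the 10 genes, in GENCODE version 44 on GRCh37. It occurred 2 times in *CCND2* and 2 times in *CDK6* and was found in none of the other 8. These 4 matches follow, with the 7 matching bases in capitals.
*CCND2*, chr12:4410070-4410090, plus strand: aaactaattttTGGTGCTgat
*CCND2*, chr12:4411723-4411743, plus strand: agcagcgtttaTGGTGCTtcc
*CDK6*, chr7:92235738-92235758, minus strand: gcttgtccacaTGGTGCTctc
*CDK6*, chr7:92235307-92235327, minus strand: atgctctgtttTGGTGCTttg

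All 4 lie in the last exon, in the 3′ UTR, at bases 906 and 2559 of 5344 in *CCND2* and at bases 8707 and 9138 of 10219 in *CDK6*. Long UTRs hold such a match often. Among genes whose 3′ UTR was within 25% of the length of that of *CCND2*, 36.8% had a match, and for *CDK6* the share was 55.2%. Over all 11832 genes with a canonical 3′ UTR it was 16.3%. The motif GGTGCTA, which pairs with bases 2 to 7 and ends in A, occurred once in *CDK6* and once in *CCNE1* and in none of the other 8 genes. It was found in 7.66% of all 3′ UTRs. Among 3′ UTRs within 25% of the length of that of *CDK6* the share was 33.2%, and for *CCNE1* it was 2.05%. The RNA level of miR-29 was not analysed here.

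The deposited values are a normalized expression signal per gene, here taken as scaled for transcript length, and they summed to between 1444644 and 1655437 in a library. The read depth behind these values is unknown, so no counting interval is given. The comparison used limma on log2(value + 1), over the 9590 genes whose mean reached 10, and a gene was called at a Benjamini-Hochberg adjusted p under 0.05. This called 7.09% of the tested genes, 2.89% higher and 4.2% lower in edited cells. With 2 libraries in each group an exact permutation test cannot give a p below 0.333, and the study calls the replicates biological, while the sources used here do not say how they were separated, so p-values measure the spread between these libraries.

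Mammary epithelial markers were present and differed between the groups. Of 8 basal markers, 8 had lower estimates in edited cells and 2 passed the test. The summed value of these 8 was 4727 and 7263 in the edited libraries and 12911 and 21293 in the wild-type libraries. *TP63*, the basal master regulator, was at 12.6 and 31.2 in edited and 134 and 126 in wild-type replicates 1 and 2 (adjusted p = 0.0284, limma; 0.10 and 0.175 without wild-type replicates 1 and 2). Of 8 luminal and general epithelial markers, 7 were tested, with 3 passing lower (*CDH1*, *ELF3*, *EPCAM*) and 1 passing higher (*KRT8*). Without wild-type replicate 2 none of these 4 passed (adjusted p from 0.0681 to 0.224), nor did *KRT17*, the other basal marker (0.236). *KRT8* also missed the threshold without each of the other libraries (0.0534 to 0.122) and with cyclic loess (0.0596), and *EPCAM* without wild-type replicate 1 (0.110). *KRT17* missed it with a pseudocount of 0.1 (0.0505), on omitting edited (0.0568) or wild-type (0.119) replicate 1, with quantile normalization (0.0518) and with no variance trend (0.0522). *KRT19*, the one under a mean of 10, was at 0.471 and 0 in edited and 2.70 and 6.42 in wild-type libraries. Of 9 fibroblast markers 3 were analysed, and their sum was 30.5 and 225 in edited and 78.0 and 52.3 in wild-type libraries, led in edited replicate 2 by *FAP* (114) and *DCN* (105). Of 5 leukocyte markers only *CD14* was analysed (8.98 to 15.1), and of 5 endothelial markers none was. The part of these marker differences in the results below was not tested, and in bulk RNA fewer cells of a type and less RNA in each cell cannot be told apart.

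None of the 8 genes passed the test. Since 7.09% of the 9590 filtered genes passed, the lack of a call among the 7 members included there does not set them apart. Of the 8 genes, 5 had higher and 3 had lower estimates in the edited libraries. Unadjusted, 5 of the 8 had a p under 0.05 (*CCND1*, *CCND2*, *CCND3*, *CCNE1* and *CDK4*). In the filtered fit, which held 7 of the 8, this was 4 of 7, against 32.3% of all tested genes. The groups of libraries did not overlap for 7 of the 8 genes, with 5 on the higher side and 2 on the lower side (all genes: 31.4% and 30.2%). Among the 7 with a mean of at least 10 it was 6 of 7, against 65.1% of all tested genes (38.3% higher, 26.9% lower). *CCND2* was the 1 gene under a mean of 10 and was tested among all 16811 genes, of which 4.73% passed, 29.2% had an unadjusted p under 0.05 and 61.6% did not overlap.

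**Figure D1:**
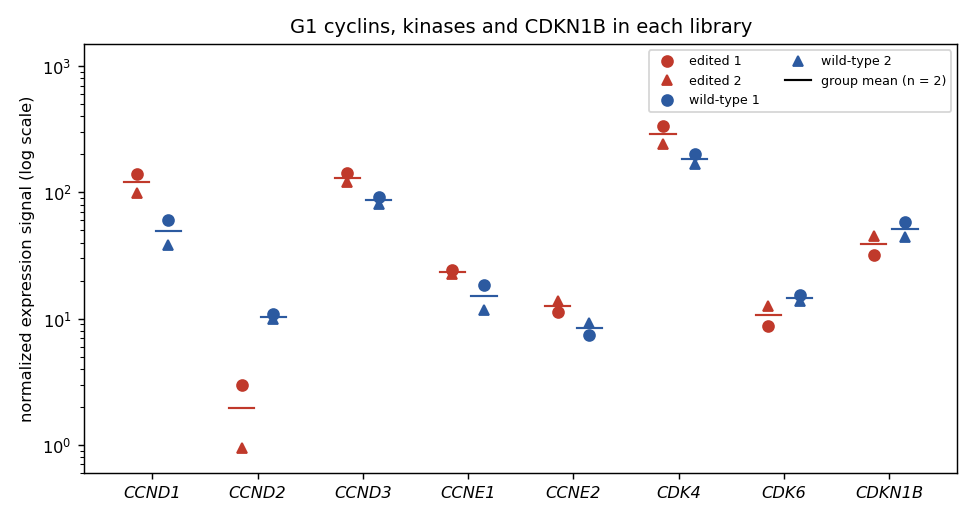
Normalized expression signal (log scale) of the 8 analysed genes in each of the 4 libraries; circles are replicate 1, triangles replicate 2, and short lines the group means of 2 libraries. The edited libraries lie above the wild-type ones for 5 genes and below them for *CCND2* and *CDK6*, and they overlap for *CDKN1B*.

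*CDK4* had the highest level of the 8 genes in every library. In wild-type cells it was followed by *CCND3*, then by *CCND1* and *CDKN1B*, whose libraries overlapped, then by *CCNE1* and *CDK6*, which also overlapped, and last by *CCND2* and *CCNE2*. In edited cells *CCND1* and *CCND3* overlapped with each other, *CCNE2* and *CDK6* overlapped, and *CCND2* was lowest. These orders compare levels of the deposited signal, which is taken as per length.

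Among the D-type cyclins, *CCND1* and *CCND2* had estimates in opposite directions. *CCND1* encodes cyclin D1, the D-type cyclin most often amplified in breast cancer, and spans chr11:69455924-69469242 on the plus strand (GRCh37). Edited replicates 1 and 2 had values of 141 and 99.6, and wild-type replicates 1 and 2 had 60.6 and 38.4. Both edited libraries were above both wild-type libraries, and within a group the 2 libraries differed by 0.50 (edited) and 0.64 (wild-type) on the log2(value + 1) scale. The means were 120 ± 29.4 (SD, n = 2) and 49.5 ± 15.7 (SD, n = 2), a ratio of 2.43. On the log2(value + 1) scale the fold change was 1.28 (standard error 0.30, 95% interval 0.54 to 2.02), and it did not pass the test (adjusted p = 0.0605, limma). It passed when the test was restricted to genes with a mean of at least 50 (adjusted p = 0.0411, limma). Under a changed pseudocount, scaling, replicate block or variance trend it did not pass (adjusted p from 0.0537 to 0.066, limma). Leaving out single libraries gave log2 fold changes from 0.96 (without wild-type replicate 2) to 1.60 (without wild-type replicate 1).

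*CCND2*, which encodes cyclin D2, spans chr12:4378937-4414519 on the plus strand. Its value was 2.97 and 0.951 in the edited libraries and 10.9 and 9.94 in the wild-type libraries. The 2 wild-type libraries were close together and above both edited ones, which differed from each other by 1.03 on the log2(value + 1) scale. The means were 1.96 ± 1.43 (SD, n = 2) and 10.4 ± 0.713 (SD, n = 2), a ratio of 0.188. The log2 fold change was -2.04 (standard error 0.38, 95% interval -3.01 to -1.07), with an adjusted p of 0.0512 from limma over all genes. With equal library totals the adjusted p was 0.0467, so the call turned on the setting. A pseudocount of 5 gave a smaller log2 fold change of -1.16 (adjusted p = 0.0387), beside 1.21 for *CCND1*, and a pseudocount of 0.1 gave -2.55 (adjusted p = 0.0723). Leaving out single libraries gave log2 fold changes from -2.55 to -1.53.

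*CCND3*, which encodes cyclin D3, spans chr6:41902672-42018095 on the minus strand. Its value was 142 and 120 in edited and 92.2 and 80.8 in wild-type libraries, so that the groups did not overlap. Its log2 fold change was 0.59 (standard error 0.20, 95% interval 0.10 to 1.09, adjusted p = 0.112 from limma). It was smaller under other scalings, down to 0.41 with cyclic loess normalization.

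Within a library, the 3 D-type cyclins were also set side by side, which a single scaling factor for each library leaves unchanged. Their summed value was 286 and 221 in edited and 164 and 129 in wild-type libraries. *CCND1* made up 49.4% and 45.1% of this sum in edited and 37.0% and 29.7% in wild-type libraries. *CCND2* made up 1.04% and 0.431% in edited and 6.69% and 7.70% in wild-type libraries. For *CCND3* the shares were 49.6% and 54.4% in edited and 56.3% and 62.6% in wild-type libraries. For each of the 3 shares the groups did not overlap, with an exact two-sided permutation p of 0.333, the smallest this design allows. The signal of *CCND1* was 47.5 and 105 times that of *CCND2* in edited cells and 5.53 and 3.86 times in wild-type cells.

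**Figure D2:**
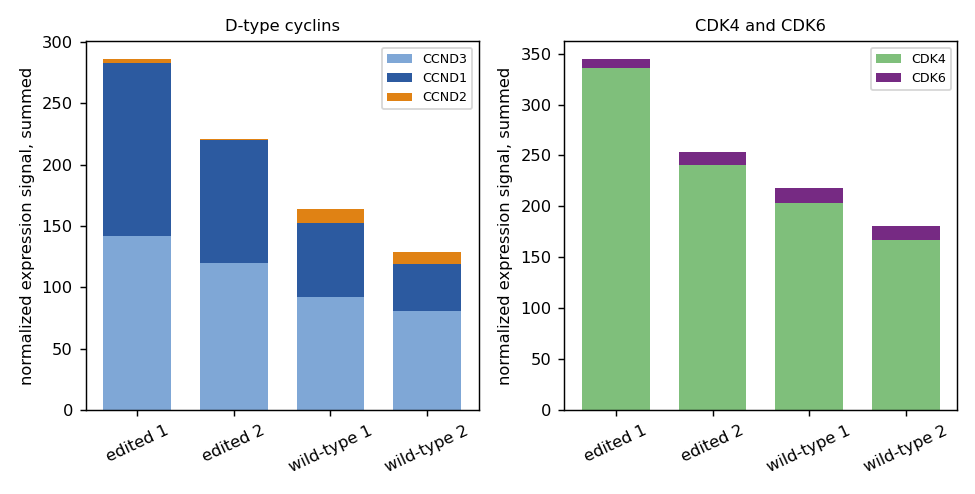
Stacked bars of the normalized expression signal of the 3 D-type cyclins (left) and of *CDK4* and *CDK6* (right), 1 bar for each library, from 0. The bars of edited libraries are taller on both sides, while the part of *CCND2* is 1.04% and 0.431% of its bar in edited and 6.69% and 7.70% in wild-type libraries.

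The kinases that the D-type cyclins bind also had estimates in opposite directions, and neither passed the test. *CDK4* spans chr12:58141510-58149796 on the minus strand. Its value was 336 and 241 in edited and 203 and 167 in wild-type libraries, and the groups did not overlap. The log2 fold change was 0.63 (standard error 0.25, 95% interval 0.00 to 1.25, adjusted p = 0.153 from limma), and 0.34 with cyclic loess normalization. Without edited replicate 1 it was 0.39. The annotation places *TSPAN31* on the opposite strand over 1078 of the 1865 bases of the *CDK4* transcript. The sources used here do not say whether strand was used in counting, and if it was not, reads there cannot be told apart. *TSPAN31* was at 54.5 and 62.0 in edited and 83.4 and 58.4 in wild-type libraries.

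*CDK6* spans chr7:92234235-92465887 on the minus strand and carries 2 of the seed matches printed above. Its value was 8.70 and 12.6 in edited and 15.4 and 13.9 in wild-type libraries. Edited replicate 2 was close to the wild-type libraries and edited replicate 1 lay lower. The log2 fold change was -0.44 (standard error 0.26, 95% interval -1.08 to 0.19, adjusted p = 0.279 from limma). Leaving out edited replicate 1 gave -0.20, and leaving out edited replicate 2 gave -0.69. The 423 tested genes of chromosome 7 had a median log2 fold change of -0.19, which is -0.28 from the median of all tested genes. *CDK6* made up 2.52% and 4.98% of the summed signal of both kinases in edited and 7.03% and 7.71% in wild-type libraries (exact two-sided permutation p = 0.333).

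Both E-type cyclins were higher in the edited libraries without passing the test. *CCNE1*, which encodes cyclin E1, spans chr19:30302898-30315219 on the plus strand. Its value was 24.3 and 22.4 in edited and 18.4 and 11.8 in wild-type libraries. The edited libraries were close to each other, and the wild-type libraries differed by 0.60 on the log2(value + 1) scale, about as much as the log2 fold change of 0.63 (standard error 0.25, 95% interval 0.00 to 1.26, adjusted p = 0.154 from limma). Without wild-type replicate 2 it was 0.33. *CCNE2*, which encodes cyclin E2, spans chr8:95891998-95908906 on the minus strand. Its value was 11.2 and 13.9 in edited and 7.49 and 9.23 in wild-type libraries, with a log2 fold change of 0.53 (standard error 0.25, 95% interval -0.10 to 1.17, adjusted p = 0.209 from limma). *INTS8* lies on the opposite strand over 1522 of the 2674 bases of its transcript and had values of 132 to 181, so the level of *CCNE2* is uncertain. The E-type cyclins summed to 35.5 and 36.3 in edited and 25.8 and 21.0 in wild-type libraries.

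*CDKN1B* spans chr12:12838432-12875303 on the plus strand. Its value was 32.2 and 45.3 in edited and 58.6 and 44.6 in wild-type libraries, so that edited replicate 2 lay within the wild-type range. The log2 fold change was -0.41 (standard error 0.24, 95% interval -1.02 to 0.20, adjusted p = 0.290 from limma). Leaving out edited replicate 1 gave -0.17, edited replicate 2 -0.65 and wild-type replicate 1 -0.22. The summed D-type cyclin signal was 8.87 and 4.87 times that of *CDKN1B* in edited and 2.79 and 2.90 times in wild-type libraries. This ratio was higher in both edited libraries and differed more between them than between the wild-type libraries.

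Other regulators of G1 and of the G1/S step gave 1 called gene. Of 25 listed genes, all were analysed and 21 had a mean of at least 10; of these, 10 had higher and 11 lower estimates in edited cells, and the median (log2) was -0.09 against 0.09 over all tested genes. The 4 under a mean of 10 had higher estimates and did not pass. *CDKN2C*, which encodes the INK4 protein p18, was at 42.8 and 32.6 in edited and 8.41 and 13.8 in wild-type libraries. This was a log2 fold change of 1.70 with a standard error of 0.28 (adjusted p = 0.0345, limma). With the replicate block it did not pass (adjusted p = 0.0767, limma). The call was lost without edited replicate 1 (1.51, adjusted p = 0.0556), wild-type replicate 1 (1.38, adjusted p = 0.0938) or wild-type replicate 2 (2.03, adjusted p = 0.0995), and over all single omissions the adjusted p ranged from 0.0129 to 0.0995. *CDKN2D*, which encodes the INK4 protein p19, was at 12.8 and 13.6 in edited and 21.9 and 30.7 in wild-type libraries (a log2 difference of -0.92, adjusted p = 0.0652 from limma). Of the INK4 genes, only these 2 were analysed.

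The pocket protein genes and the E2F genes were described from the same list. *RB1*, the target of cyclin D kinases, was at 40.9 and 48.6 in edited and 67.3 and 78.9 in wild-type libraries (a log2 difference of -0.70, adjusted p = 0.0809 from limma). Its relative *RBL2* was at 32.3 and 40.5 in edited and 61.8 and 70.4 in wild-type libraries (a log2 difference of -0.85, adjusted p = 0.0595). For both the groups did not overlap, while they did for *RBL1* (log2 fold change -0.09, adjusted p = 0.825). *E2F1*, an activating E2F, had a mean under 10, with 12.6 and 12.6 in edited and 6.52 and 3.17 in wild-type libraries (a log2 difference of 1.28, adjusted p = 0.0824 over all genes). Smaller log2 differences were found for *E2F2* (0.36), *E2F3* (0.69), *E2F4* (0.75) and *E2F5* (0.40), and none of these passed. The kinase of cyclin E, *CDK2*, was at 69.4 and 70.9 in edited and 82.8 and 74.5 in wild-type libraries (a log2 difference of -0.16, adjusted p = 0.562). *CDKN1A*, which encodes the inhibitor p21, was at 170 and 121 in edited and 198 and 320 in wild-type libraries (a log2 difference of -0.81, adjusted p = 0.145). *CDKN1C*, which encodes p57, differed widely between the edited libraries, at 63.7 and 11.1, against 4.15 and 15.3 in wild-type libraries.

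**Figure D3:**
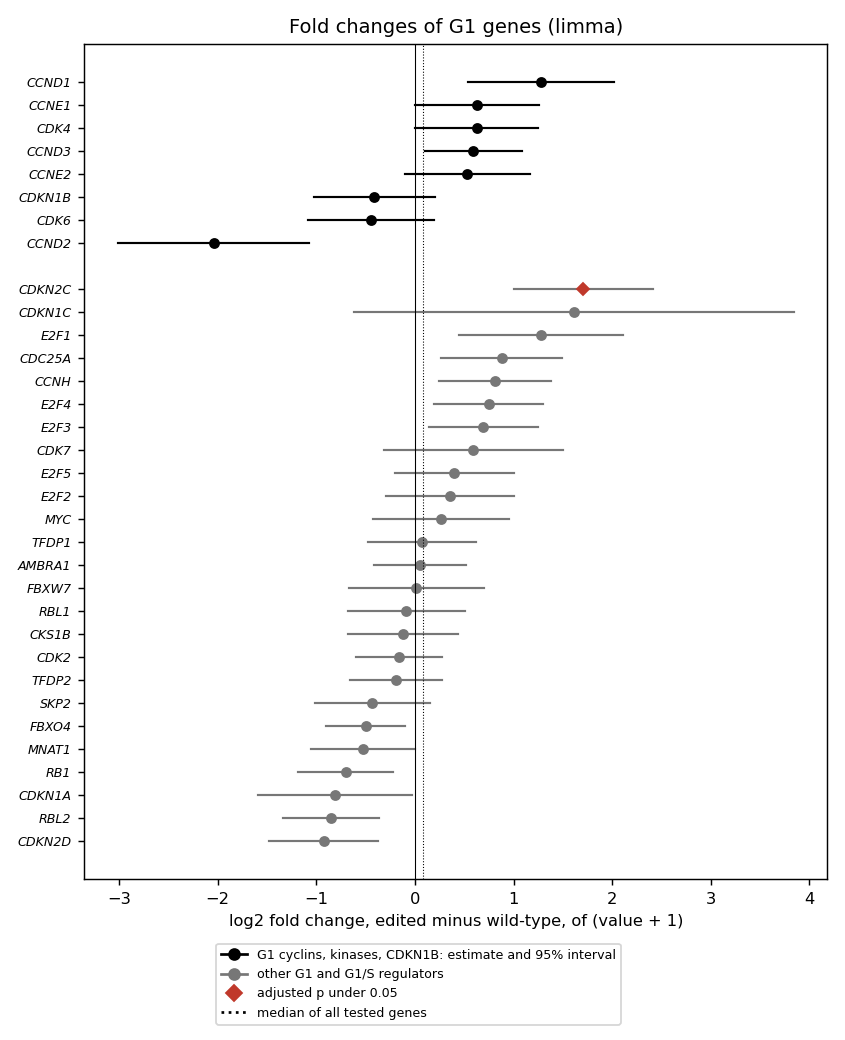
Log2 fold change of (value + 1), edited minus wild-type, with the 95% interval from limma, for the 8 analysed genes (black) and 25 other regulators of G1 and G1/S (grey); the dotted line is the median of all tested genes at 0.09. *CDKN2C* is the 1 gene past an adjusted p of 0.05 (red diamond), and among the 8 *CCND1* is at 1.28 and *CCND2* at -2.04.

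Genes of the later phases were counted for comparison with those of G1. Of 19 S phase genes, 15 had higher and 4 lower estimates in edited cells (median 0.32 on the log2 scale), and 1 passed the test. This was *UHRF1*, a replication-coupled regulator of DNA methylation, at 23.3 and 22.5 in edited and 12.0 and 11 in wild-type libraries (a log2 difference of 0.93, adjusted p = 0.0469 from limma). Leaving out any 1 library ended this call, with adjusted p of 0.143 and 0.0680 without edited and 0.109 and 0.216 without wild-type replicates 1 and 2, and so did equal library totals (0.0580). *TYMS*, which makes thymidylate for DNA synthesis, was at 283 and 191 in edited and 98.0 and 114 in wild-type libraries (a log2 difference of 1.13, adjusted p = 0.0583). Of 16 G2/M genes none passed the test, 14 having higher and 2 lower estimates, with a median of 0.16. Over all 9590 tested genes, 5439 estimates were higher and 4151 lower. These directions depended on the scaling. With cyclic loess normalization most of the 14 G2/M estimates fell below 0, to -0.14 at the lowest, while the others stayed above 0, up to 0.59. Of the 15 S phase estimates only those of *MCM4* (-0.08) and *MCM7* (-0.06) fell below 0. *CCNB1*, the mitotic cyclin, was at 685 and 437 in edited and 389 and 215 in wild-type libraries (a log2 difference of 0.92, adjusted p = 0.159). Groups did not overlap for 15 of the 19 S phase genes and for 4 of the 16 G2/M genes, against 65.1% of all tested genes.

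**Figure D4:**
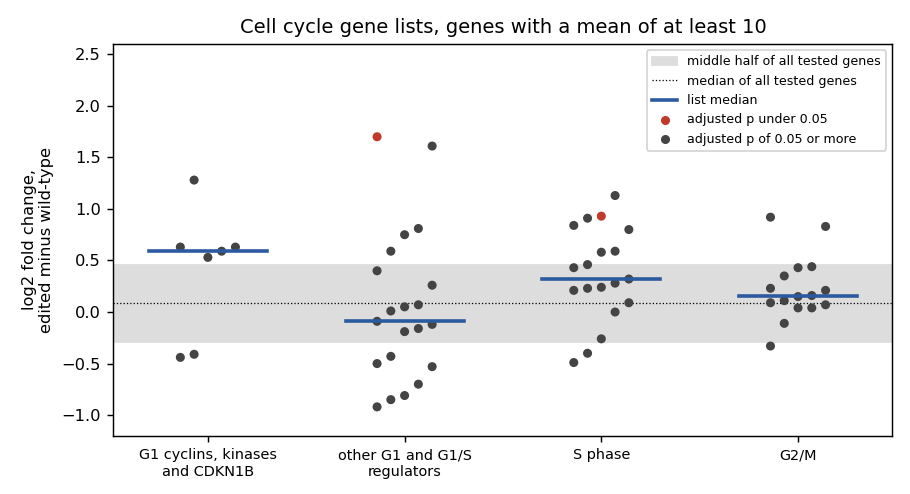
Log2 fold change of each gene with a mean of at least 10 in 4 cell cycle lists, edited minus wild-type, with list medians as blue lines and the range between the quartiles of all tested genes (-0.29 to 0.46) in grey. The medians are 0.59, -0.09, 0.32 and 0.16 from left to right, and the 2 red points, *CDKN2C* and *UHRF1*, passed an adjusted p of 0.05.

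*CDK6* and *CCND2* were also read beside other known miR-29 targets. Of 24 listed targets, these 2 included, 19 were analysed. Of the 11 with a mean of at least 10, 8 had higher and 3 lower estimates in edited cells (median 0.16 on the log2 scale). One passed in each direction. *PIK3R1*, a regulatory subunit of PI 3-kinase, was at 50.5 and 49.4 in edited and 17.2 and 25.1 in wild-type libraries (a log2 difference of 1.22, adjusted p = 0.0403 from limma). *COL1A1*, a fibrillar collagen gene that is also among the fibroblast markers, was at 3.19 and 5.58 in edited and 15.6 and 28.1 in wild-type libraries (a log2 difference of -2.06, adjusted p = 0.0420). Both calls were lost without edited replicate 1 (adjusted p = 0.0713 for *PIK3R1* and 0.0522 for *COL1A1*), wild-type replicate 1 (0.106 and 0.0842) or wild-type replicate 2 (0.110 and 0.216). Scaling also ended them, for *PIK3R1* with equal library totals (0.0566) or cyclic loess (0.0530) and for *COL1A1* with quantile normalization (0.0504). The 8 targets under a mean of 10 gave 2 higher and 6 lower estimates and no call. The estimates of *CDK6* and *CCND2* were both below 0.

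The direction of the estimate of each of the 8 genes was the same with equal library totals, quantile normalization and cyclic loess normalization. With equal library totals the median over all tested genes (log2 fold change) went from 0.09 to -0.03, and the log2 fold change of *CCND1* was 1.16, of *CCND2* -2.13, of *CDK4* 0.51 and of *CDK6* -0.55. Median values (log2 fold change) of the other chromosomes that carry these genes were 0.23 for 6, 0.06 for 8, 0.16 for 11, 0.13 for 12 and 0.22 for 19. *CCND2*, *CDK4* and *CDKN1B* all lie on chromosome 12, at log2 fold changes of -2.04, 0.63 and -0.41.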

How the data were processed

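Poly(A)-selected RNA of 2 edited and 2 wild-type MCF12A cultures was sequenced, and each library's group and number come from its label. The authors deposited 1 normalized expression signal for each gene and library. The submitters' processing notes name HISAT2, Salmon and hg38, and the normalization and annotation are not given in the sources used here. After multiplication by transcript length, 26 to 29 of 165 to 197 low values in a library were whole multiples (up to 6, within 0.01) of 1 step, a candidate for the value of 1 read at 1 kb, between 0.0895 and 0.108. Without length it was 17 to 28 of 338 to 377. These shares were too small to turn the values into reads, so no count test was used.

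limma 3.58.1 in R 4.3.3 (lmFit, eBayes with trend) was run on log2(value + 1) for the 9590 genes with a mean of at least 10, and on all 16811 genes for those below. Adjustment was by Benjamini-Hochberg over all genes in the fit. On simulated libraries of 9590 genes with 200 changed by 2 on the log2 scale, 199 were found and 5 others called. Among the chosen G1 genes, only *CCND2* (log2 fold change -2.04), which was not among the 9590, had an estimate of that size. The next largest was 1.28 for *CCND1*. Smaller changes were not simulated, so this result does not show how often changes of the size estimated for the other genes would be found. The simulated spread was drawn around the typical spread at each level. In the real libraries some larger estimates did not pass, such as *KRT14* at -3.08 (adjusted p = 0.0512, limma) and *DCN* at 3.30 (0.0974). Others did, such as *CDH1* at -5.28 (0.00328). How often a change of 2 is found in the real libraries is therefore not shown. Alternatives covered pseudocount, filter, scaling, replicate block, variance trend, threshold and each library left out. Same-numbered libraries did not deviate together (correlation -0.14 over 9590 genes) and no label pairs them. The genes and lists were chosen with earlier results of these data known. All 10 genes were to be named, with up to 4 genes of smallest adjusted p from each list as examples. *CDK2*, *RBL1*, *E2F1*, *E2F2*, *E2F3*, *E2F4*, *E2F5*, *CDKN1A*, *CDKN1C*, *MCM4*, *MCM7* and *KRT19* were named after their values were seen. Positions are GRCh37 (GENCODE version 44); the deposited table holds none. Python 3.11.15, numpy 2.4.6, pandas 2.3.3, scipy 1.17.1 and matplotlib 3.10.9 were used.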

Additional observations from a re-analysis of the deposited data

How the results depend on the processing

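None of the 8 genes passed an adjusted p of 0.05 in the main test. One did with a pseudocount of 5 (*CCND2*), with equal library totals (*CCND2*), and with a mean of at least 50 (*CCND1*), that is 1, 1 and 1 gene. Omitting single libraries, 0 to 1 passed (*CCND1* without edited replicate 2). Only 3 of the 8 genes reach a mean of 50 and could enter that test. None of the 107 log2 fold changes of the 8 genes under the alternatives changed sign. The replicate blocks, the variance trend and the filters cannot change a fold change. Where the groups of libraries do not overlap, omitting a library or changing the pseudocount cannot change its sign. This tally therefore says little about how stable the directions are. Over all tested genes, 680 were called in the main test, 133 with the replicate block, 419 with a mean of at least 50, 1 at an adjusted p under 0.001, and 4 to 1431 when single libraries were omitted (4 without wild-type replicate 2, 47 without wild-type replicate 1, 424 and 1431 without edited replicates 1 and 2). The fit with the replicate block called 0 of the 8 genes. It also ended the calls of *CDKN2C* (adjusted p = 0.0767, limma), *UHRF1* (0.0836), *PIK3R1* (0.0734), *COL1A1* (0.0579), *TP63* (0.0644), *KRT17* (0.0707) and *KRT8* (0.0718). *CDH1* and *ELF3* (both 0.0257) and *EPCAM* (0.0422) stayed called in that fit. Replicates that share a number share nothing else in the labels. A crossed pairing of the numbers, chosen after seeing the data, called 1002 genes and 0 of the 8. With it *CDKN2C* (adjusted p = 0.00675, limma), *UHRF1* (0.0448), *PIK3R1* (0.0214), *COL1A1* (0.03), *TP63* (0.00625) and *KRT17* (0.0204) passed, and *KRT8* (0.0606) did not. Edited minus wild-type differences in share ranged, on omitting single libraries, from 10.3 to 17.5 percentage points for *CCND1*, from -6.96 to -5.95 for *CCND2*, from -10.6 to -4.30 for *CCND3* and from -4.85 to -2.40 for *CDK6*. The cause of these changes was not tested. The read depth is unknown, so its limits could not be given. The fold change of *CCND2*, the gene with the lowest values, moved most with the pseudocount.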

Other observations

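Genes around *CDKN2A* and *CDKN2B* on chromosome 9 were analysed where those inhibitors were not. Of 8 listed neighbours 5 were analysed, and none passed the test. *MTAP*, a methionine salvage enzyme gene next to *CDKN2A*, was at 37.4 and 56.3 in edited and 60.9 and 50.3 in wild-type libraries, so the groups overlapped. *FOCAD* was at 25.2 and 21.1 in edited and 26.3 and 30.3 in wild-type libraries, and *KLHL9* at 3.85 and 3.54 against 4.98 and 5.47, both without overlap and lower in edited cells (adjusted p = 0.337 and 0.277 from limma). *IFNE* (1.58 and 3.23 in edited, 1.98 and 3.15 in wild-type libraries) and *ELAVL2* (6.51 and 3.67, and 4.88 and 5.30) overlapped between groups.

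Known regulators of the INK4 locus gave no call. Of 10 listed genes 9 were analysed, 6 with a mean of at least 10, of which 2 had higher and 4 lower estimates in edited cells (median log2 fold change -0.11). *BMI1*, a Polycomb repressor of the locus, was at 52.6 and 51.4 in edited and 39.9 and 34.4 in wild-type libraries (a log2 difference of 0.48, adjusted p = 0.129 from limma). *ETS2*, which encodes an ETS factor, was at 74.2 and 117 in edited and 180 and 205 in wild-type libraries (a log2 difference of -1.03, adjusted p = 0.0749).

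By distance of centred log2(value + 1) over the 4 libraries, the genes with the pattern closest to that of *CCND2*, out of 9590, were *RAPGEFL1* (distance 0.30), *TMEM139* (0.39) and *C1orf116* (0.40). *RAPGEFL1* was at 12.1 and 6.46 in edited and 40.1 and 46.1 in wild-type libraries. With 4 libraries this is a description.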
